A study of Mus musculus with 2 samples.

Results

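The vacuolar protein sorting, charged multivesicular body protein and sorting nexin genes were examined for H4K12la, histone H4 carrying a lactyl group on lysine 12, in a mouse neuroblastoma line. Membership goes by symbol, and the symbols were picked with earlier results of these data known. They are the 75 protein-coding genes named Vps, Snx or Chmp plus a digit, out of 21887 protein-coding genes that RefSeq places on the chromosomes of GRCm38.p6 (mm10). There were 35 Vps, 30 Snx and 10 Chmp genes. The lactate library came from Neuro2a cells given 25 mM lactate and the control library from Neuro2a cells given NaCl, with 1 CUT&Tag library per group. Both groups were the same line, grown on collagen in serum-containing medium and profiled with the same H4K12la antibody. With 1 library per group no test between them was made, no difference has a replicate check, and intervals cover counting error only.

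These genes encode the machinery that sorts membrane proteins on endosomes. Retromer, retriever and several sorting nexins return receptors from endosomes to the cell surface or the Golgi. The ESCRT complexes instead pull ubiquitin-tagged receptors into vesicles bound for the lysosome, and HOPS and CORVET tether endosomes and lysosomes before fusion. GARP and EARP tether returning vesicles, and Vps13 proteins carry lipids between membranes. Neurons rely on this traffic to recycle receptors along long processes. In CUT&Tag an antibody guides a transposase to a chromatin mark, so a called peak shows where tagged DNA piled up above the local background of that library.

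The lactate list held 39768 peaks and the control list 46592, and their genome-wide backgrounds were 3.06 overlapping reads for lactate and 2.96 for the control, 3.43% higher under lactate. No peak in either library had fewer than 11 summit reads. Peaks are called against the local background, so a gene without a call may carry signal below or near that level. Where the background is high, it may carry more. Of 14 neuronal and neuroblastoma markers, 9 had a gene-end peak under lactate (64.3%, beside 44.8% of all protein-coding genes). In the control 6 had one (42.9%, beside 32%). Gata3 and Mycn were among the markers with none in either. Of 14 markers foreign to the line, Mbp alone had a gene-end peak, under lactate with 15 summit reads. Inside the gene and away from its ends, 7 of the 14 neuronal markers had peaks in both libraries, Gata3 among them (50%, beside 22.1% of all genes). Of the foreign markers, Pecam1 had such peaks in both libraries, and Mbp and Cdh5 under lactate alone.

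Most of the sorting genes carried H4K12la peaks at a gene end, meaning within 1 kb of either annotated end. A peak was called at 61 of the 75 genes under lactate, or 81.3%, beside 44.8% of all protein-coding genes. In the control it was called at 44 of the 75, or 58.7%, beside 32% of all genes. An end window of 32 of the 75 genes also met that of another protein-coding gene, and the highest peak lay at the other gene's end for 15 of the 61 lactate calls and 11 of the 44 control calls. Both libraries called 43 of the genes (57.3%, beside 28.6% of all genes), lactate alone 18 (24%, beside 16.2%), the control alone 1 (1.33%, beside 3.34%), and neither 13 (17.3%, beside 51.9%). Over all genes called in a single library, 82.9% were lactate-only, and here 18 were, with Vps9d1 as the exception. Among the 62 called in either library, 69.4% were called in both, beside 59.5% of the 10533 such genes overall. At a stricter −log10 q of at least 5 (q and fold are the authors' values for each peak), the lactate library kept 34 of the genes (45.3%, beside 24.1% of all genes) and the control 14 (18.7%, beside 8.54%).

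**Figure D1:**
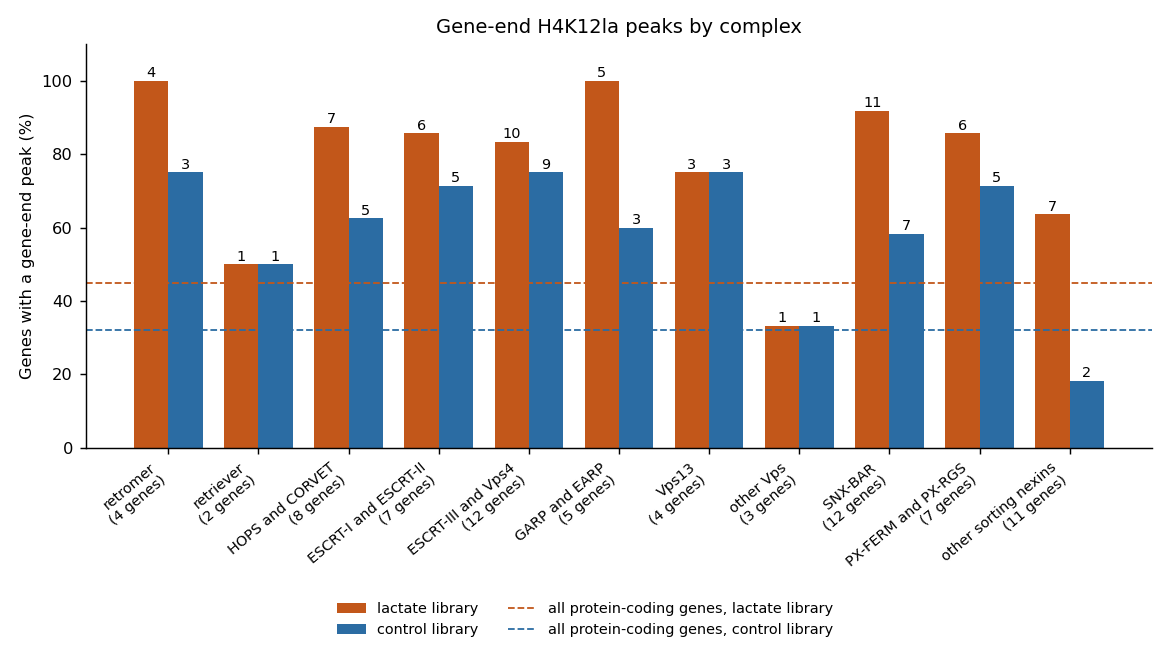
Percentage of genes with a gene-end H4K12la peak in each group of complexes, lactate bars left of control bars, with the number of genes called above each bar and dashed lines for all protein-coding genes (44.8% under lactate and 32% in the control). The lactate bar stood as high as the control bar or higher in every group, and the sorting nexins outside the BAR, FERM and RGS classes had the lowest control bar, with 2 of 11 genes.

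The calls lay at gene starts. RefSeq promoter entries (GRCm38.p6), which give strand and start, were matched for 49 of the 75 genes. Of these, 42 had a lactate peak at the 5′ end and 4 at the 3′ end, and 30 had a control peak at the 5′ end and 1 at the 3′ end. That is 85.7% at the 5′ end under lactate, beside 43.5% of all genes with an entry, and 61.2% in the control, beside 30.6%. The 3′ shares were 8.16% under lactate, beside 5.54% of all genes with an entry, and 2.04% in the control, beside 4.6%. The highest summits lay a median of 24 bp inside the nearest listed start under lactate and 65 bp inside in the control. Over all genes with an entry the medians were 19 bp under lactate and 29 bp in the control. Peaks were broad beside the medians of all genes, at 547 bp against 464 bp under lactate and 473 bp against 292 bp in the control.

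**Figure D2:**
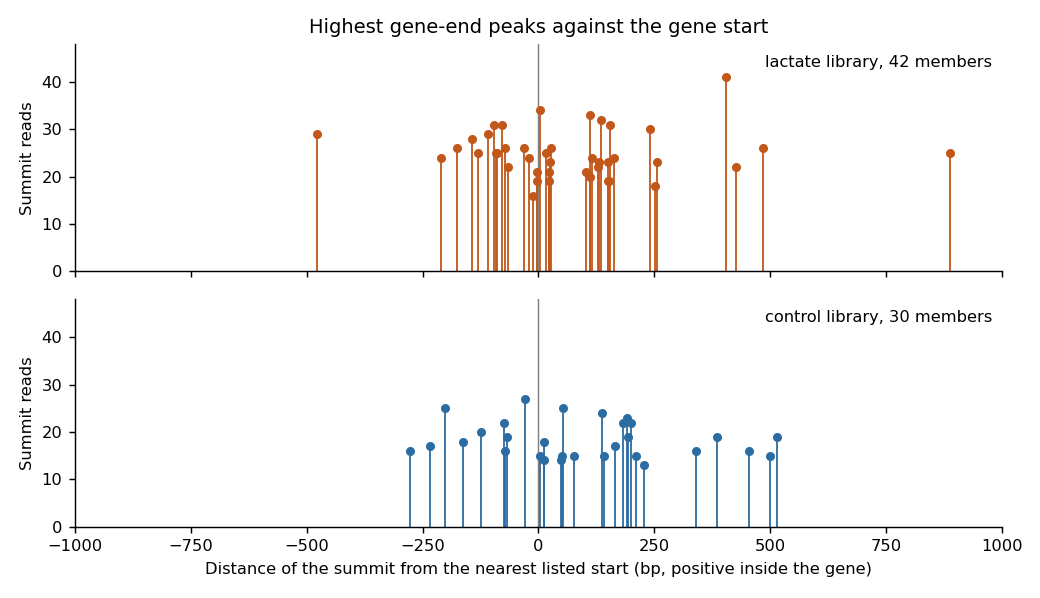
Distance of each gene's highest gene-end summit from its nearest listed start (bp, positive inside the gene) against its summit reads, with the lactate library above and the control below. Of the genes with an entry and a call, 42 under lactate and 30 in the control had the summit within 1 kb of a start, and the summits crowd around 0 on both sides.

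The promoters below belong to the genes with the most summit reads in their class whose highest peak meets a promoter entry, 3 lactate-only genes and 2 called in both libraries. The lactate-only genes are Snx19, Snx1 and Snx12, and the shared ones Vps54 and Snx4. No entry was used for Vps9d1, the gene called in the control alone. Each sequence runs from 250 bases before the listed start to 50 after it, 5′ to 3′ on the gene's strand. Capitals mark 6 motifs searched on both strands, none of which contains another: the E-box core (CACGTG), the ETS core (CCGGAA), the box bound by NF-Y (CCAAT), the GC box (GGGCGG), the TATA box (TATAAA) and the core of CREB sites (TGACG). The Snx19 promoter lies on chromosome 9 plus strand (chr9:30427079-30427378), Snx1 on chromosome 9 minus strand (chr9:66124837-66125136) and Snx12 on chromosome X minus strand (chrX:101222514-101222813). Vps54 lies on chromosome 11 plus strand (chr11:21238782-21239081) and Snx4 on chromosome 16 plus strand (chr16:33251206-33251505).
Snx19: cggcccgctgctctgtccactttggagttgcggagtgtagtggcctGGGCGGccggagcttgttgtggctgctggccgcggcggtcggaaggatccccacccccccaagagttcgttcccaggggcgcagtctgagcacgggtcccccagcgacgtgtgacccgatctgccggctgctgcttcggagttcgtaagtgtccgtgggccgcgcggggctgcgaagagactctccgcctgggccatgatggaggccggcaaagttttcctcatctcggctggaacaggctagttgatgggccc
Snx1: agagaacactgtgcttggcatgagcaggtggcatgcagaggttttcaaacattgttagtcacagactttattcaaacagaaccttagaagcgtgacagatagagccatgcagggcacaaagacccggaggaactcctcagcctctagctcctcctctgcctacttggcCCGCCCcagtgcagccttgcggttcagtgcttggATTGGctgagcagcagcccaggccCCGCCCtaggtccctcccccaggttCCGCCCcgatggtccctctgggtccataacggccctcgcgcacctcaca
Snx12: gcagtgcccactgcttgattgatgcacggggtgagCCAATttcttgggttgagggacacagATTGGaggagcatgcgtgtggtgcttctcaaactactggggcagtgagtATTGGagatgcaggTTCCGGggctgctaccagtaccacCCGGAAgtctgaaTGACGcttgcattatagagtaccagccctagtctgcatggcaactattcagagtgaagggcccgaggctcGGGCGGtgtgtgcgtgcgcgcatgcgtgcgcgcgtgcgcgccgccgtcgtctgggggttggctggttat
Vps54: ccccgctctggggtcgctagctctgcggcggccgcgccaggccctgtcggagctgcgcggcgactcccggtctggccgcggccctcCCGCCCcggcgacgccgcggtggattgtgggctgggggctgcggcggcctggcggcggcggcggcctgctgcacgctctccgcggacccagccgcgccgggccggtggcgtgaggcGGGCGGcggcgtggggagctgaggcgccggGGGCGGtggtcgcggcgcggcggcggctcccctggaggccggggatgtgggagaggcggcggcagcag
Snx4: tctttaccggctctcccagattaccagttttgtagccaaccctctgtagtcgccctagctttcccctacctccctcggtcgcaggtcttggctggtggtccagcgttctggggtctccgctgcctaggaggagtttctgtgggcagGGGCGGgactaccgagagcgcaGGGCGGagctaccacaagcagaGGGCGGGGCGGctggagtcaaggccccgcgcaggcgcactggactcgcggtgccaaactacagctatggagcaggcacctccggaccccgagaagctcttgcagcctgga

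All 5 held the GC box, which was present in 34 of the 49 promoters of the sorting genes (69.4%), beside 46.3% of 17492 promoters overall and 66.2% of those of genes called in both libraries. The ETS core was in 21 (42.9%), beside 19.1% overall and 31.9% of genes called in both. Of the 5 printed, Snx12 alone held it. The E-box core, which is part of the sites of the lysosomal regulator TFEB, was in 7 (14.3%), beside 7.9% overall and 10.7% of genes called in both. The 7 were Vps16, Vps26a, Vps33a, Vps50, Snx5, Snx8 and Snx18. TGACG was in 18 (36.7%), beside 23.8% of all promoters and 34.1% of genes called in both. CCAAT was in 14 (28.6%), beside 39% of all and 39.5% of genes called in both. TATAAA was in 3 (6.12%), beside 13.3% of all and 5.67% of genes called in both. The 49 promoters include genes called under lactate alone or in neither library. For the 31 sorting genes called in both, the GC box share was 61.3%, below the 66.2% of all genes called in both. The ETS core was in 41.9% of these 31, the E-box core in 16.1%, TGACG in 38.7%, CCAAT in 22.6% and TATAAA in 6.45%. Of the 6 sorting genes called in neither, 5 held the GC box and 4 the ETS core. A match is a string in these 300 bases and was not tested as a binding site.

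The promoters were rich in CpG. The median observed over expected CpG ratio was 0.81 for the sorting genes and 0.58 over all promoters, and 45 of 49 (91.8%) reached 0.6, beside 48.3%. The ratio was 0.81 for sorting genes called in both libraries, 0.82 for those called under lactate alone and 0.83 for the 6 called in neither. Among genes of every kind with a ratio of at least 0.6, a gene-end peak was called for 70.8% under lactate and 49.1% in the control. The 45 sorting genes stood at 88.9% under lactate and 64.4% in the control. Their share called under lactate alone, 24.4%, was close to the 23.9% of all genes with CpG-rich promoters, and their share called in both was 64.4%, beside 46.9%.

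Summit reads, the number of overlapping extended reads at a peak's highest point, were higher under lactate at 42 of the 43 genes called in both (97.7%) and equal at Chmp2a. More lactate than control reads were also seen at 94.6% of all 6266 genes called in both, and the part of the 3.43% higher lactate background in it was not tested. Summit reads are not set against the local background. The fold, which is, went both ways. It was 4.42 under lactate and 6.71 in the control at Vps35, but 5.52 under lactate and 3.56 in the control at Vps50. The medians were 25 reads under lactate and 17 in the control for the sorting genes, against 27 under lactate and 17 in the control over all genes. Lactate counts ran from 17 to 45 reads and control counts from 12 to 32. For none of the 43 did the 95% Poisson intervals of the libraries separate, beside 2.31% of genes overall with the lactate interval above that of the control and 0.0319% with the control interval above. Overlap of intervals is no proof of equal counts. The highest peaks of both libraries overlapped at 40 of the 43, the exceptions being Vps16, Vps51 and Snx25, and at 89.6% of all genes called in both.

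**Figure D3:**
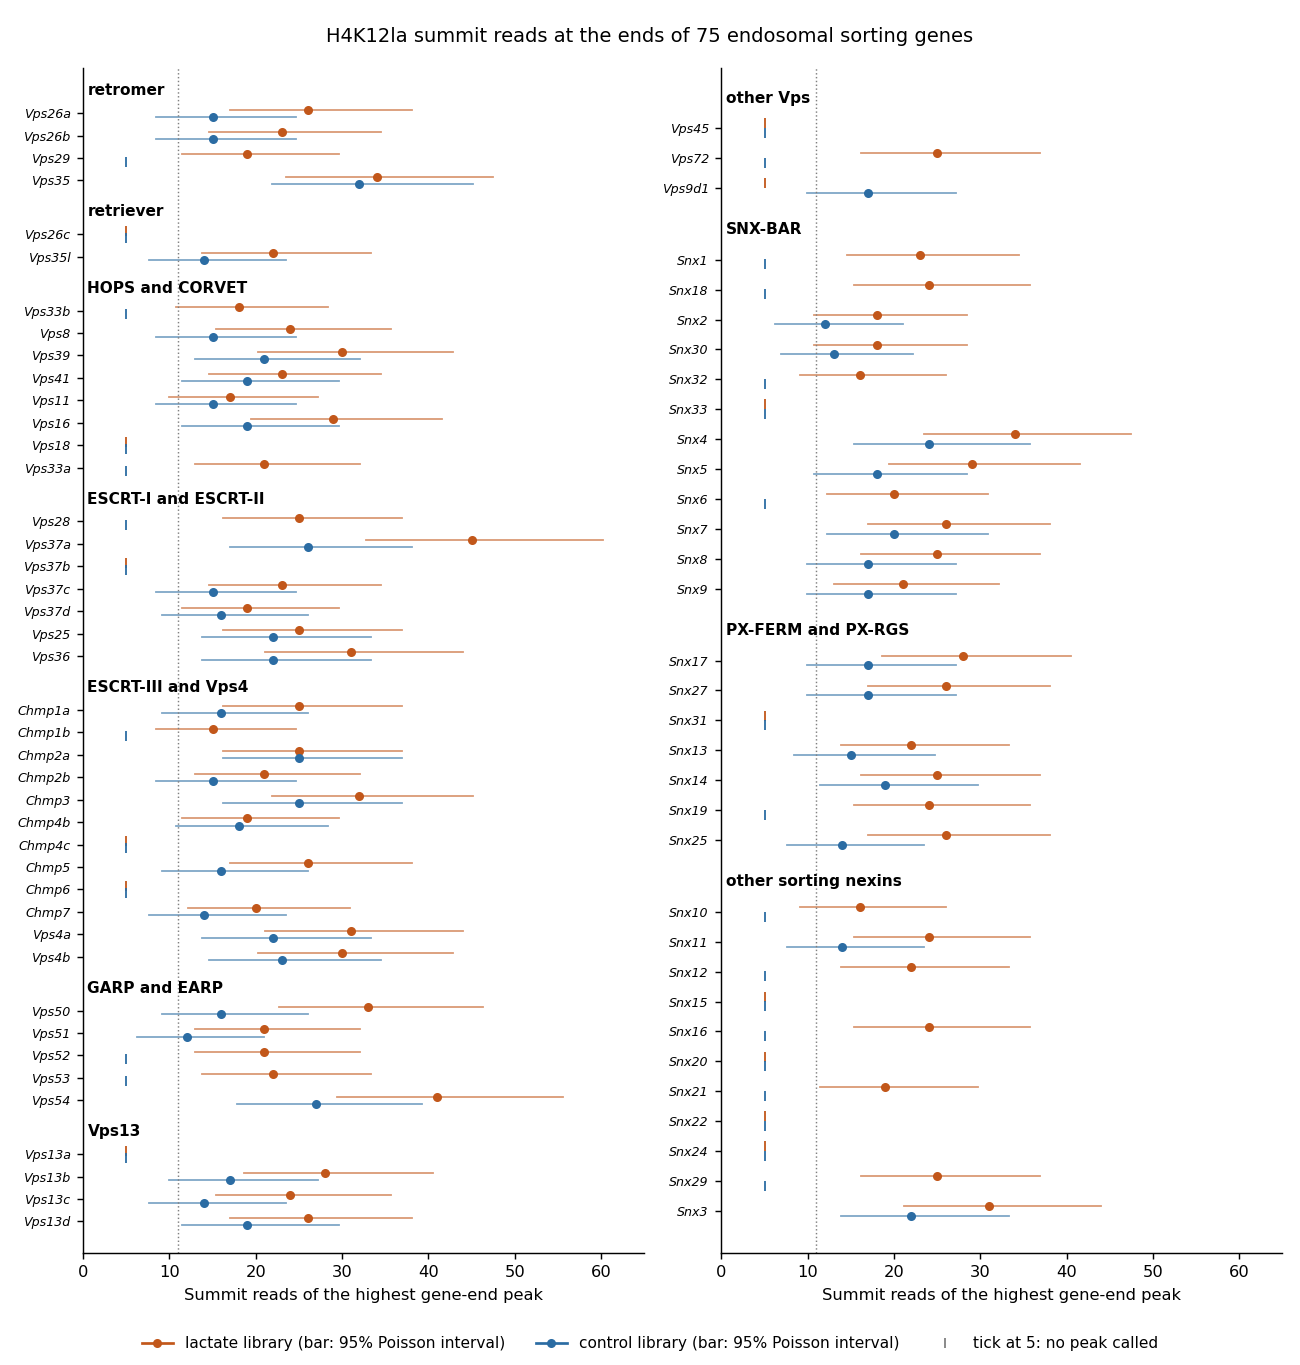
Summit reads of the highest gene-end peak for each of the 75 genes by complex, lactate above control, with 95% Poisson intervals. A tick at 5 marks a gene with no peak called, and the dotted line marks 11 reads, the lowest summit called. Orange points lie to the right of blue points at 42 of the 43 genes with both.

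Retromer, the 4-gene recycling coat counted here without its sorting nexins, was called in full under lactate and at 3 genes in the control. Vps35, its scaffold, had 34 summit reads under lactate (23.5 to 47.5) and 32 in the control (21.9 to 45.2). This was the highest control count at a gene end among the 75 genes, and the peak, at the upper end of the gene on chromosome 8 (85299192 to 85300069 under lactate), also lay at an end of Orc6. Vps26a, an arrestin-like subunit, had 26 lactate reads (17 to 38.1) and 15 control reads (8.4 to 24.7) at its start. Its paralogue Vps26b had 23 lactate reads and 15 control reads. Vps29, the smallest subunit, which retriever also uses, was called under lactate alone with 19 reads (11.4 to 29.7). In retriever, the related complex for another set of receptors, Vps35l had 22 lactate and 14 control reads, while the arrestin-like Vps26c had no peak at its ends or in its body in either library.

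HOPS and CORVET, which tether late and early endosomes, share a core. The lactate library called 7 of 8 genes of this group, counting the related Vps33b, and the control 5. Vps39, specific to HOPS, had 30 lactate reads (20.2 to 42.8) and 21 control reads (13 to 32.1). Vps16, a core subunit, had 29 lactate reads and 19 control reads, on peaks that did not overlap and that both lay at an end of Pced1a as well. Vps41 of HOPS had 23 lactate and 19 control reads, Vps8 of CORVET 24 lactate and 15 control reads, and the core subunit Vps11 17 lactate and 15 control reads. These 5 were called in both libraries, and their intervals overlapped. The SM proteins Vps33a and Vps33b, which guide SNARE assembly, were called under lactate alone, with 21 and 18 reads and a −log10 q of 2.04 and 3.42. The core subunit Vps18 had no peak in either library.

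In ESCRT-I and ESCRT-II, the early complexes that gather ubiquitin-tagged cargo, 6 of 7 genes were called under lactate and 5 in the control. Vps37a, an ESCRT-I subunit, had 45 lactate reads (32.8 to 60.2), the most at a gene end among the 75 genes, and 26 control reads (17 to 38.1). Its lactate peak covered 1480 bp at the lower end of the gene on chromosome 8, at 40510908 to 40512387. The ESCRT-II subunit Vps36 had 31 lactate and 22 control reads, Vps37c 23 lactate and 15 control reads, and Vps37d 19 lactate and 16 control reads. Vps25, also of ESCRT-II, had 25 lactate reads and 22 control reads. Those peaks lay at its 3′ end, which is also an end of the kinase gene Wnk4. Near its listed start, Vps25 had a lactate peak of 18 reads and no control peak. Vps28, the ESCRT-I core subunit, was called under lactate alone with 25 reads (16.2 to 36.9), at a −log10 q of 2.83 and beside Tonsl. Vps37b was not called at an end. It had a peak 2.37 kb inside its lower end with 29 lactate reads (19.4 to 41.6) and 17 control reads (9.9 to 27.2).

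ESCRT-III forms the filaments that cut membrane necks, and the ATPases Vps4a and Vps4b take it apart. Of these 12 genes, 10 were called under lactate and 9 in the control. Chmp3 had 32 lactate reads (21.9 to 45.2) and 25 control reads (16.2 to 36.9). Vps4a had 31 lactate and 22 control reads, and Vps4b had 30 lactate and 23 control reads. The other genes called in both were Chmp1a (25 lactate and 16 control reads), Chmp2b (21 lactate and 15 control), Chmp4b (19 lactate and 18 control), Chmp5 (26 lactate and 16 control) and Chmp7 (20 lactate and 14 control). Chmp2a had 25 reads in each library, at a −log10 q of 2.60 under lactate and 7.50 in the control. Chmp1b was called under lactate alone, with 15 reads and a −log10 q of 2.87. Chmp4c and Chmp6 had no gene-end peak.

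In GARP and EARP, which tether vesicles returning to the Golgi and to recycling endosomes, the lactate library called all 5 genes and the control 3. Vps54, found in GARP only, had 41 lactate reads (29.4 to 55.6) and 27 control reads (17.8 to 39.3) across its start. Vps50, found in EARP only, had 33 lactate reads (22.7 to 46.3) and 16 control reads (9.15 to 26), on a peak shared with Hepacam2. Of the shared subunits, Vps52 and Vps53 were called under lactate alone, with 21 and 22 reads at a −log10 q of 1.67 and 4.96, and both peaks also lay at the end of another gene (Rps18 and Tlcd3a). Vps51 had 21 lactate reads at its lower end, 17 lactate reads at its upper end and 12 control reads at its upper end. The control peak of Vps51 was lost once both lists held the same number of peaks.

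Of the bridge-like lipid transfer proteins, Vps13b had 28 lactate and 17 control reads, Vps13d 26 lactate and 19 control reads, and Vps13c 24 lactate and 14 control reads. Vps13a, the gene of human chorea-acanthocytosis, lacked a gene-end call under lactate and in the control. Among the 3 remaining Vps genes, Vps72 was called under lactate alone with 25 reads (16.2 to 36.9). Its product serves chromatin complexes that handle the histone variant H2A.Z, not endosomes. Vps9d1, a gene with the exchange factor domain of Rab5 activators, was the single gene called in the control alone. It had 17 control reads (9.9 to 27.2) at a −log10 q of 2.18, on a peak at chromosome 8, 123253947 to 123254296, that also lay at an end of Zfp276.

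The SNX-BAR proteins bend membranes into the tubules that carry recycled cargo. Here 11 of 12 genes were called under lactate and 7 in the control. Snx4, which acts in recycling and autophagy, had 34 lactate reads (23.5 to 47.5) and 24 control reads (15.4 to 35.7). Snx7 and Snx30, its known partners, had 26 and 18 lactate reads against 20 and 13 control reads. Snx1, Snx2, Snx5 and Snx6 form the coat that works beside retromer, and this quartet was split. Snx5 had 29 lactate and 18 control reads, and Snx2 had 18 lactate and 12 control reads. Snx1 and Snx6 were called under lactate alone, with 23 reads (14.6 to 34.5) and 20 reads. Of the endocytic nexins, Snx9 had 21 lactate and 17 control reads, Snx18 was called under lactate alone with 24 reads, and Snx33 had no gene-end peak. Snx8 had 25 lactate and 17 control reads, and Snx32 was lactate-only with 16.

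Of the FERM-type cargo adaptors, Snx17, the receptor-binding partner of retriever, had 28 lactate reads (18.6 to 40.5) and 17 control reads (9.9 to 27.2). The peak was shared with Eif2b4. Snx27, the PDZ-bearing partner of retromer, had 26 lactate and 17 control reads. Snx31 had no peak in either library. Among the RGS-type nexins, which sit at contacts with the endoplasmic reticulum, Snx14 had 25 lactate and 19 control reads, Snx25 26 lactate and 14 control reads, and Snx13 22 lactate and 15 control reads. Snx13's peaks lay near its listed start, which is inside the annotated gene, and were not called with a window of 500 bp. Snx19 was called under lactate alone with 24 reads (15.4 to 35.7).

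The other 11 nexins, mostly a PX lipid-binding domain with little else, had 7 lactate calls and 2 control calls. Snx3, the retromer adaptor for Wntless, had 31 lactate reads (21.1 to 44) and 22 control reads (13.8 to 33.3), and Snx11 had 24 lactate and 14 control reads. Snx10, Snx12, Snx16, Snx21 and Snx29 were called under lactate alone, with 16, 22, 24, 19 and 25 reads. Snx15, Snx20, Snx22 and Snx24 had no gene-end peak. By family, lactate-only calls came to 10 of 30 Snx genes (33.3%), 7 of 35 Vps genes (20%) and 1 of 10 Chmp genes (10%). The share over all protein-coding genes was 16.2%, and a difference between the families was not tested.

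Of the 18 genes called under lactate alone, Snx1, Snx12, Snx16 and Snx19 reached a −log10 q of 5. That is 5.33% of the 75 genes, beside 4.25% of all genes. The control-only Vps9d1 did not reach it, and 0.132% of all genes were control-only at that level. Snx16, which acts on late endosomes, had 24 reads (15.4 to 35.7) on an 841 bp peak at chromosome 3, 10439465 to 10440305, with a −log10 q of 8.87. Snx12, a close relative of Snx3, had 22 reads (13.8 to 33.3) on 682 bp at chromosome X, 101222097 to 101222778, with 8.63. Snx1 and Snx19 followed at 6.01 and 5.97. The median over the 18 was 21.5 reads, beside 19 over the 3537 lactate-only genes overall. No gene among the 18 exceeded 25 reads. Snx10 alone had a control peak less than 3 kb from its lactate peak, and 8 of the 18 had a control peak in the gene body. With end windows of 3 kb, Snx10, Vps52 and Vps72 were called in the control as well and were no longer lactate-only. For Vps52 and Vps72 the nearest control peak lay 7577 and 12904 bp from the lactate peak, so that control call was at the other end of the gene. The lactate peaks of 4 of the 18, Vps28, Vps29, Vps52 and Vps53, also lay at an end of a neighbouring gene.

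Inside the genes and away from their ends, peaks were called at 39 of the 75 genes under lactate (52%, beside 31.2% of all genes) and at 33 in the control (44%, beside 28.7%). Body peaks in lactate alone were called at 12 genes (16%, beside 9.1% of all genes), and in the control alone at 6 (8%, beside 6.52%). The sorting genes are longer than most, with a median of 28.9 kb against 17.2 kb. Per Mb of gene they held 20.1 body peaks under lactate and 18.2 in the control, against 15.9 under lactate and 15.7 in the control over all protein-coding genes. Vps13b, at 560 kb the longest, had 9 lactate and 11 control body peaks. Snx29, at 436 kb, had 12 lactate and 6 control body peaks, while Vps13d, at 324 kb, had 2 lactate and 5 control body peaks. Snx12 (133 kb) and Snx24 (147 kb) had none in either library.

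**Figure D4:**
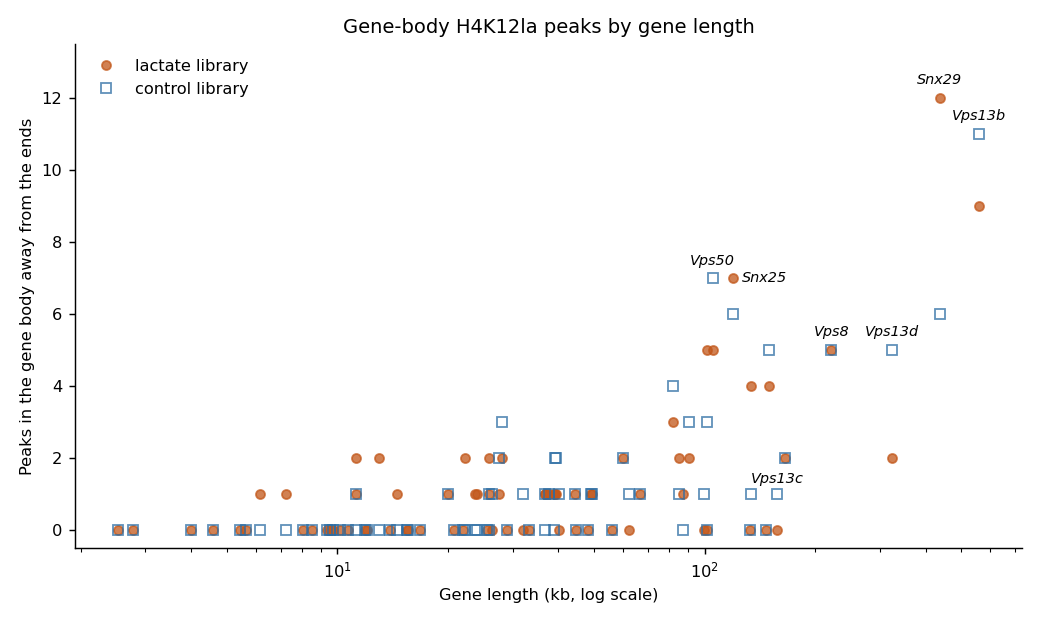
Number of H4K12la peaks in each gene body away from the ends against gene length (kb, log scale), with filled circles for the lactate library and open squares for the control. Snx29 stands highest with 12 lactate and 6 control peaks, and Vps13b had 9 lactate and 11 control peaks.

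The highest body peaks were shared by both libraries. One in Vps45, an SM protein of endosomal fusion, had 82 lactate reads (65.2 to 102) and 69 control reads (53.7 to 87.3), at chromosome 3, 96044528 to 96045046 under lactate. It lay 13606 bp inside the listed start and was above every gene-end peak of the 75 genes. One in Vps33a, 4352 bp inside its start, had 56 lactate reads (42.3 to 72.7) and 50 control reads (37.1 to 65.9), beside the 21 reads of its lactate-only start peak. Vps45 also had a peak of 21 lactate and 14 control reads near its listed start. That start lies inside the annotated gene, so the peak falls outside the gene-end window. In ESCRT-III and its ATPases, 7 of 12 genes had a body peak under lactate (58.3%, beside 31.2% of all genes). In the control 1 had, Chmp4b (8.33%, beside 28.7%). None of these peaks reached a −log10 q of 5, and the highest was 3.65, at Vps4b. HOPS and CORVET had 5 of 8 genes with a body peak in each library, and GARP and EARP 4 of 5. The control had more in Vps13 (4 against 3), retromer (2 against 1) and the FERM and RGS nexins (4 against 2). Lactate had more in ESCRT-I and ESCRT-II (5 against 4), SNX-BAR (6 against 5) and the 11 other nexins (4 against 2).

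Of the 13 genes with no gene-end call, 7 had a body peak: Vps13a, Vps37b, Vps45, Chmp4c, Chmp6, Snx15 and Snx33. The remaining 6, Vps18, Vps26c, Snx20, Snx22, Snx24 and Snx31, had no peak in the gene or within 1 kb of it. With windows of 3 kb, Vps18 had a lactate call.

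Among 54 other genes of the same pathways, which have other symbols, 37 were called at a gene end under lactate (68.5%, beside 44.8% of all genes) and 30 in the control (55.6%, beside 32%). The 7 lactate-only genes came to 13%, beside 16.2% of all genes, and there was no control-only gene, beside 3.34%. Tgfbrap1, the CORVET partner of Vps8, had 62 lactate and 41 control reads, more than any of the 75 genes at an end. All 5 subunits of the actin-nucleating WASH complex, a retromer partner, were called in both libraries, from Washc5 (35 lactate and 25 control reads) to Washc1 (22 lactate and 13 control reads). The ESCRT-0 genes Hgs, Stam and Stam2 were called in both. The ESCRT-I genes Mvb12a and Ubap1 were lactate-only with 23 reads each, and Tsg101, the ESCRT-I core, had body peaks in both libraries and no gene-end peak. Uvrag, which binds HOPS and the class III phosphoinositide kinase, was lactate-only with 32 reads at a −log10 q of 12.53. Of the cargo receptors, Sort1 had 29 lactate and 12 control reads and M6pr 26 lactate and 16 control reads, whereas Sorl1, Igf2r, Sorcs1, Sorcs2 and Sorcs3 were not called at an end with lactate or NaCl.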

How the data were processed

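H4K12la CUT&Tag was done on Neuro2a cells given 25 mM lactate or NaCl and read as pairs of 150 bases each, per the labels' protocols. BWA, deepTools and MACS2 were used with build mm10, per the submitters' processing notes; no version, setting or input library is named in those notes. The authors deposited 1 peak list with scores per library. The deposited fold is the ratio of summit pileup to local background, each summit has a deposited −log10 p and −log10 q, and their score is 10 times the −log10 q, rounded down in nearly every line.

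Mitochondrial peaks, 6 per list, were dropped. Summit reads were solved as whole numbers from fold and −log10 p, within 0.001 for all 39768 lactate and 46591 of 46592 control peaks. This step and the assignment of peaks to genes were tested on simulated data. A gene was called where a peak met, by at least 1 bp, the window of 1 kb on either side of an annotated end. The table of gene ends gives no strand, so both ends were used. Relative depth was taken from the recovered background, as the lists carry no library totals.

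Samples were grouped by the treatment in the labels, with no test between 2 single libraries. Gene shares stand beside the same share over all protein-coding genes, which were not matched for expression or length. Exact Poisson 95% intervals cover counting error only. The genes, complexes and lists were chosen with earlier results of these data known. The naming rule gave values for every control-only gene, every lactate-only gene at a −log10 q of 5 and the 2 highest genes of each complex; the others were added. The CpG threshold was chosen after the data were seen. The values of some marker genes are not reported here. Stricter peaks, equal list lengths, other windows and subsets of genes were tried as alternatives. Python 3.11.15, numpy 2.4.6, pandas 2.3.3 and scipy 1.17.1 were used.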

Additional observations from a re-analysis of the deposited data

How the results depend on the processing

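The number of sorting genes called stayed higher under lactate than in the control in all 9 alternatives run for it. With peaks under a −log10 q of 5 removed, gene-end calls came to 34 under lactate and 14 in the control, and the body calls to 10 under lactate and 7 in the control. The lactate-only excess was then 22 against 2 control-only genes, which were Vps25 and Chmp2a. Over all protein-coding genes the same cut left gene-end calls at 24.1% under lactate and 8.54% in the control, so the lactate excess was not particular to the sorting genes. The 43 genes whose end windows meet no window of another gene had 34 lactate and 25 control calls and an excess of 9, as fewer genes were counted. Without the genes whose highest peak lies at another gene's end, 46 of 59 were called under lactate and 32 in the control. Lists of equal length gave 61 lactate and 43 control calls. Over all protein-coding genes such lists gave calls at 44.8% under lactate and 29.7% in the control. Windows of 500 bp gave 59 lactate and 40 control calls among the sorting genes. Windows of 3 kb gave 65 lactate and 49 control, and summits inside the window gave 60 lactate and 43 control. Over the 49 genes with a promoter entry, the 5′ end alone gave 42 lactate and 30 control calls. The listed starts, an alternative chosen after seeing the data, gave 44 lactate and 31 control and added Vps45 in both libraries. No paired analysis was possible because each group has 1 library. A gene without a call may hold signal near the lowest called summit of 11 reads, or above it where the local background is high. The Vps52 lactate peak, with 21 reads, had a −log10 q of 1.67, beside 1.30 as the lowest in either list. A difference of a few reads cannot be told from counting error.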

Other observations

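At 7 of the 43 sorting genes called in both libraries the −log10 q was lower under lactate although its summit reads were higher or equal. At Vps35 it was 9.52 under lactate with 34 reads and 14.58 in the control with 32 reads. At Vps25 it was 4.04 with 25 lactate reads and 5.59 with 22 control reads. The fold at Chmp2a was 2.55 under lactate and 4.69 in the control with 25 reads in each, so the local background behind the same count was higher under lactate.

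Some related genes differed in where they were called, and others did not. Vps26a and Vps26b were called in both libraries and Vps26c in neither. Vps37a, Vps37c and Vps37d were called in both. Vps37b was called only in its body, but with windows of 3 kb it had a gene-end call in both libraries. Snx3 was called in both libraries and its relative Snx12 under lactate alone. Vps4a and Vps4b were alike, called in both, as were Chmp2a and Chmp2b. Vps33a and Vps33b were each called under lactate alone.

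The gene-end peaks of the lactate library outnumbered those of the control at the sorting genes, with 80 peaks against 48, as they did over all genes, with 12270 against 8182. A control peak overlapped 52.5% of the lactate peaks, beside 52.9% at the ends of all protein-coding genes. A lactate peak overlapped 91.7% of the control peaks, beside 82.3%. In the gene bodies the shares were 34% of 94 lactate peaks, beside 37.8% over all genes, and 36.5% of 85 control peaks, beside 39.1%.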
